A study of Mus musculus with 6 samples.

Results

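The genes described here are the mouse genes whose symbol is Zfp followed by a number. They were chosen by that name and by signal: a gene entered if its highest signal over the 6 arrays exceeded 200, and Zfp36, a gene of cytokine mRNA decay, was left out. Of 304 such genes measured on the arrays, 187 were members and 117 stayed at or below 200, out of 18194 genes in all and 9202 genes over the same limit. Each gene was read from the probe set that names it alone and had the highest mean log2 signal, so the highest signal is what chose the members and is no result.

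Most Zfp genes encode C2H2 zinc finger proteins, in which chains of fingers read DNA, and many carry a KRAB domain. KRAB recruits the corepressor TRIM28 (KAP1) and through it the histone methyltransferase SETDB1, HP1 proteins and DNA methylation, which silence retroelements and imprinted loci. Such KRAB zinc finger genes lie in the genome in runs of near neighbours that arose by duplication. Other Zfp genes encode proteins of unrelated function, among them ribosome assembly factors, RNA-binding proteins and regulators of transcription. The symbol describes a fold and no shared role, and which members hold a KRAB domain was not analysed here.

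The cells were splenic CD4 T cells of C57BL/6 mice cultured under Th2 conditions with 25 U/ml IL-2 and 100 U/ml IL-4 for 5 days (Th2-1st, effector Th2 cells), or carried on through repeated cycles to the fourth round (Th2-4th, fully developed Th2 cells). Per the study's methods, the cells of the 5-day culture were themselves stimulated with antibodies against TCR and CD28, and those of each later cycle with anti-TCR. The later cycles used IL-2 and antibody against IL-4, so Th2-4th and Th2-1st cells differ in age, in cytokines and in rounds of anti-TCR. Unstimulated here means without the final 4 h exposure. All 6 samples were nucleofected with siRNA for 24 h: control siRNA in 4 and siRNA against Gata3, the master transcription factor of Th2 cells, in the other 2. In each culture, 1 control sample was left unstimulated, while the other control sample and the GATA3 siRNA sample were exposed to immobilized anti-TCR antibody for 4 h. There was 1 array per condition, so no difference has a replicate error and no test was made. A gene is called lower or higher here where 1 array lay below 0.5-fold or above 2-fold of the other, the cutoffs the study used for its arrays. Counts over the members are set beside the share over all genes, over genes above 200 or over both, as stated with each.

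All 13 genes of a list that T cells are known to induce on stimulation, among them Egr1, Nr4a1, Il4 and Il2, were higher than 2-fold in both cultures, with median log2 ratios of 6.11 and 6.01. Among marker genes, the 4 CD4 T cell and the 4 Th2 genes measured exceeded 200, while the 2 B cell and 4 myeloid genes measured stayed at or below 147 on every array. Of the 3 CD8 T or NK cell genes measured, 2 exceeded 200: Cd8b1, at 313 to 444 on the Th2-1st arrays and 110.4 to 185 on the Th2-4th arrays, and Cd8a, at up to 217, while Ncr1 stayed at or below 16.7. The Th1 genes Tbx21 and Ifng moved with stimulation: their summed signal was 1313 and 997 on the unstimulated Th2-1st and Th2-4th arrays and 20446 and 44990.5 on the stimulated control arrays. Their part in the results below was not tested. With GATA3 siRNA, the Gata3 signal was 1798 against 4883 with control siRNA (Th2-1st) and 2853 against 9261 (Th2-4th).

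Stimulation gave wider ratios in the Zfp genes than culture age or GATA3 siRNA did, and in both cultures more of them were lower than higher. In Th2-1st cells, 33 of the 187 (17.6%) were lower than 0.5-fold, beside 16.9% of all genes and 16.8% of genes over 200. In the same cells 8 (4.28%) were over 2-fold, beside 17.5% of all genes and 9.89% of genes over 200. In Th2-4th cells 54 (28.9%) were lower, beside 21.6% and 21.8%, and 5 (2.67%) were higher, beside 18.7% and 13.7%. The median log2 ratio of the members was -0.32 (Th2-1st) and -0.47 (Th2-4th), against -0.17 and -0.24 over all genes above 200. The share of lower genes was thus near the background in Th2-1st cells and above it in Th2-4th cells, whereas the share of higher genes was below it in both.

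Both stimulation ratios rest on separate arrays, so their direction can be compared. A total of 29 members (15.5%) were lower than 0.5-fold in both cultures, beside 9.27% of all genes and 12.8% of genes over 200. Only 4 (2.14%), Zfp296, Zfp593, Zfp703 and Zfp783, were over 2-fold in both, beside 8% and 7.98%. The ratio was below 0 in both cultures for 111 members, above 0 in both for 41 and of mixed sign for 35. These were 59.4%, 21.9% and 18.7% of the members, beside 50.7%, 32.6% and 16.6% of genes over 200. Across the members, the 2 sets of ratios had a Pearson correlation of 0.77 and a Spearman correlation of 0.76, as a description over 187 genes that share their arrays, beside 0.86 and 0.83 over the genes above 200. The siRNA arrays add a further stimulated sample to each culture. For 77 members (41.2%) both unstimulated arrays lay above all 4 stimulated arrays, beside 31.7% of genes over 200, and for 20 members (10.7%) both lay below all 4, beside 19.9%.

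**Figure D1:**
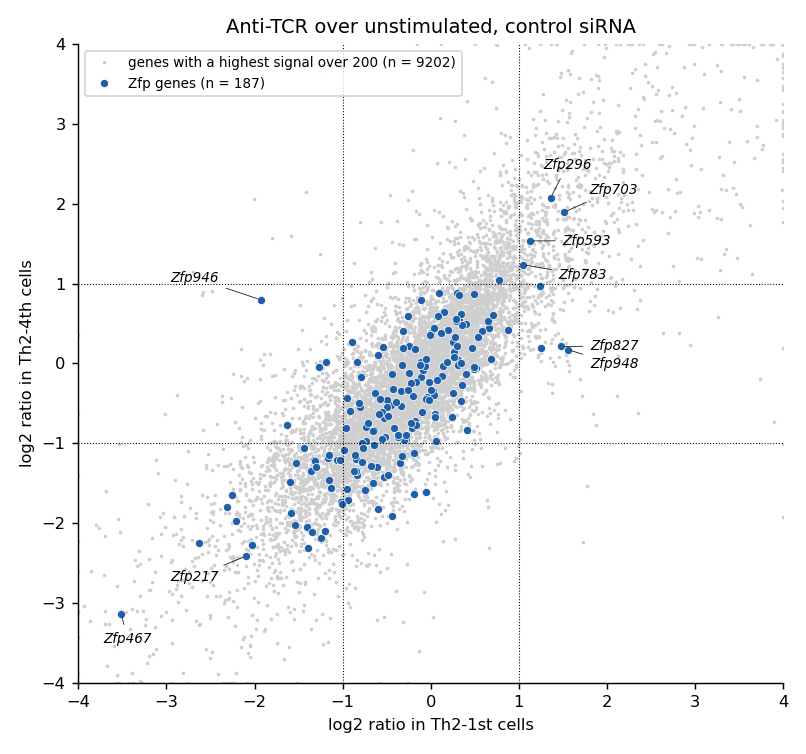
Log2 ratio of anti-TCR stimulated over unstimulated cells with control siRNA in Th2-1st (x axis) and Th2-4th cells (y axis), 1 array per condition. Blue points are the 187 Zfp genes and grey points the 9202 genes over 200 (values past 4 or -4 are drawn at the edge); dotted lines mark 0.5-fold and 2-fold, and 29 Zfp genes lie in the lower left corner against 4 in the upper right.

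The limit on signal bears on these counts. Of the 187 members, 118 exceeded 200 on all 6 arrays, 54 on 2 to 5 arrays and 15 on 1 array, and 25 exceeded it on unstimulated arrays alone against 7 on stimulated arrays alone. Of the 29 lower in both cultures, 12 passed through the unstimulated arrays alone and 17 were over 200 on arrays of both kinds. Just inside the limit, the highest signals were 203.7 (Zfp438), 205.5 (Zfp41) and 209.6 (Zfp865), and just outside they were 199.5 (Zfp956), 198.3 (Zfp691) and 196.9 (Zfp963). Over all 304 Zfp genes with no limit, 16.4% were lower and 8.55% higher in the Th2-1st pair, beside 16.9% and 17.5% of all genes. In the Th2-4th pair these were 26.3% and 7.57%, beside 21.6% and 18.7%.

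Among genes over 200, those of low mean signal were below 0.5-fold more often than bright ones, in the Zfp genes as in all. A gene with a mean below 200 must vary between arrays to enter, so the limit bears on this gradient. Of the 117 Zfp genes at or below 200, 14.5% (Th2-1st) and 22.2% (Th2-4th) were lower, beside 17.6% and 28.9% of the members. Over all genes, of any signal, these shares were 16.9% and 21.6%. Split by mean log2 signal into 3 groups of 62, 62 and 63, the members had median log2 ratios of -0.57, -0.33 and -0.06 (Th2-1st) and of -0.82, -0.51 and -0.13 (Th2-4th), from the dimmest group to the brightest. Genes over 200 in the same ranges of signal had medians of -0.49, -0.34 and -0.06 and of -0.58, -0.43 and -0.13. In Th2-1st cells the members' share below 0.5-fold was 24.2%, 19.4% and 9.52%, beside 30.0%, 20.8% and 10.8%, so it was no higher than among genes of like signal. In Th2-4th cells it was 40.3%, 32.3% and 14.3%, beside 35.6%, 25.97% and 15.7%. The share over 2-fold was smaller among the Zfp genes in each group: 4.84%, 3.23% and 4.76% beside 10.4%, 8.27% and 10.4% (Th2-1st), and 1.61%, 3.23% and 3.17% beside 13.9%, 10.3% and 15.0% (Th2-4th). Within each range of signal, a smaller share of Zfp genes than of genes over 200 was thus above 2-fold in each culture, a difference that was not tested.

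**Figure D2:**
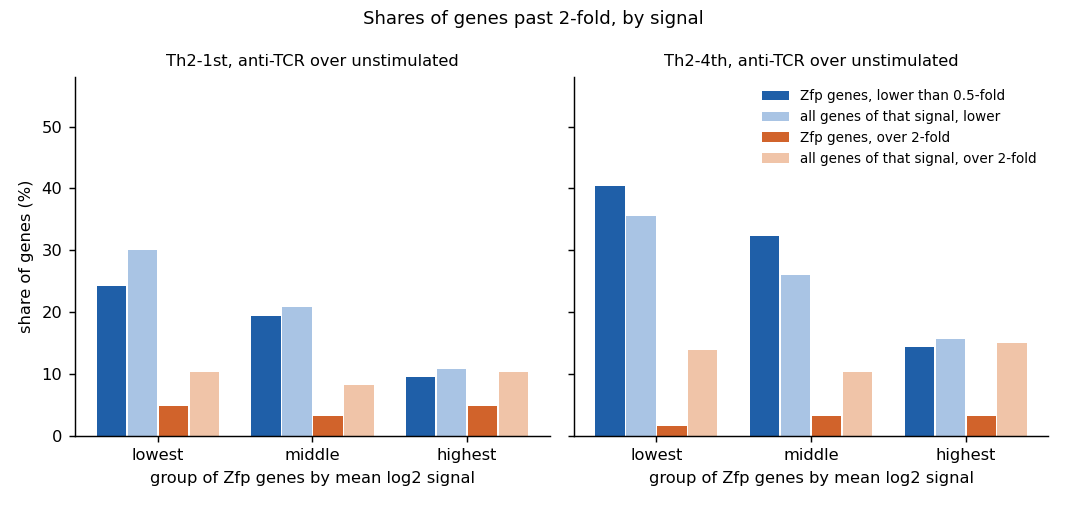
Share of genes (%, y axis) below 0.5-fold (blue) and above 2-fold (orange) after anti-TCR stimulation, for the Zfp genes in 3 groups by mean log2 signal (dark bars, 62, 62 and 63 genes) and for all genes over 200 in the same range of signal (pale bars). The dark blue bars follow the pale ones from the dimmest to the brightest group, whereas every dark orange bar is below 5% and every pale one above 8%.

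Zfp217 led the genes that were lower in both cultures with a signal over 200 in each. It encodes a nuclear corepressor-associated factor whose human homologue is amplified in breast cancer. Its signal went from 2570.4 to 602 in Th2-1st cells and from 3171 to 596 in Th2-4th cells (log2 ratios -2.10 and -2.41), and it was 618 and 918 on the GATA3 siRNA arrays. Both unstimulated arrays were above all 4 stimulated ones. It has 1 probe set, so no second reading of its transcript was available.

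Zfp362 went from 1125 to 226 in Th2-1st cells and from 1171 to 338 in Th2-4th cells (log2 ratios -2.32 and -1.79). Zfp287 went from 731 to 158 in Th2-1st cells and from 864 to 219 in Th2-4th cells (log2 ratios -2.21 and -1.98). For both genes the GATA3 siRNA arrays, at 231 and 411 for Zfp362 and at 169 and 241 for Zfp287, also lay below both unstimulated arrays. Zfp386 went from 1328 to 457 in Th2-1st cells and from 2181 to 536 in Th2-4th cells (log2 ratios -1.54 and -2.02), and its second probe set gave ratios of -1.40 and -1.63. Zfp652, whose human homologue is a DNA-binding partner of the corepressor CBFA2T3, went from 857 to 284 in Th2-1st cells and from 1167 to 318 in Th2-4th cells (log2 ratios -1.59 and -1.87). In each of these genes the lowest unstimulated signal was more than 1.5-fold the highest stimulated one.

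Zfp654 went from 717 to 238 in Th2-1st cells and from 557 to 199 in Th2-4th cells (log2 ratios -1.59 and -1.48). In Zfp3 and Zfp40 the stimulated control signal fell under 100, where ratios are less certain: Zfp3 went from 313 to 65.6 in Th2-1st cells and from 298 to 95.04 in Th2-4th cells, and Zfp40 from 356 to 86.9 in Th2-1st cells and from 447 to 92.7 in Th2-4th cells. The other 3 probe sets of Zfp40, whose signals were lower, also had negative ratios in both cultures, between -2.74 and -0.74. The most negative ratios of all belonged to Zfp467, a factor known from the choice between fat and bone cell fates. Its signal went from 461 to 40.3 in Th2-1st cells and from 116 to 13.2 in Th2-4th cells (log2 ratios -3.51 and -3.14), and in Th2-4th cells it was under 200 on every array.

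The genes lower in both cultures could be checked in part by further probe sets. Of the 29, 16 had another probe set and 10 had a second one over 200. In all 10 the second was below 0 in both cultures, and in 4 it was below 0.5-fold in both. Over the 56 members with a second probe set over 200, the ratios of the 2 probe sets lay apart by a median of 0.38 (Th2-1st) and 0.43 (Th2-4th) on the log2 scale.

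**Figure D3:**
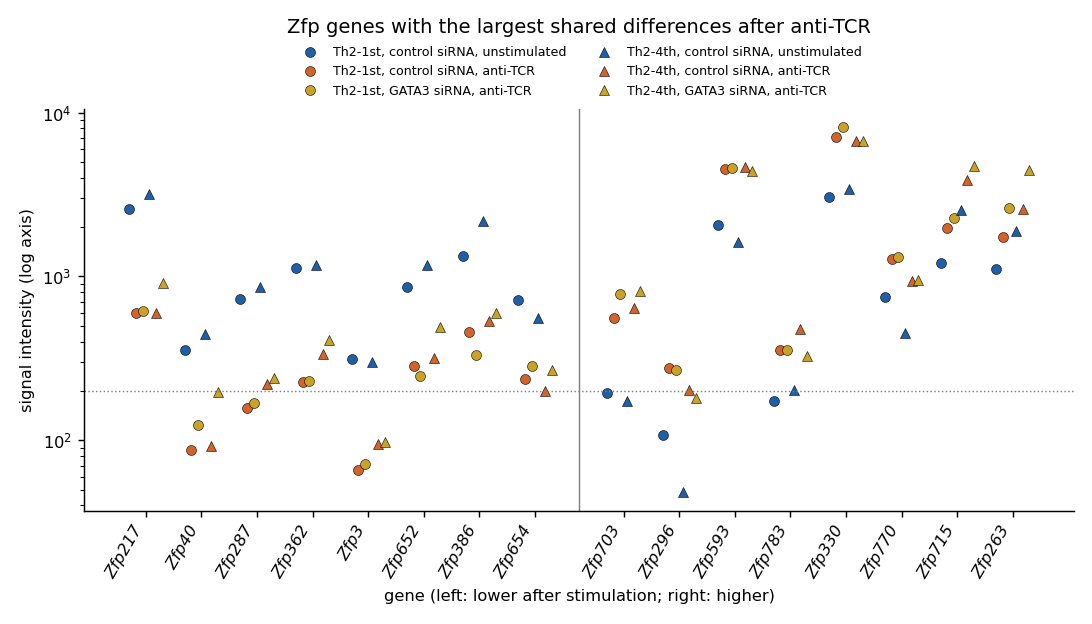
Signal intensity (log axis) on each of the 6 arrays for the 8 Zfp genes with the largest shared ratios below 0 (left) and the 8 with the largest above 0 (right) after stimulation. They were ranked only among members whose higher signal was over 200 in the control pair of each culture. Circles are Th2-1st and triangles Th2-4th cells, blue unstimulated, orange anti-TCR with control siRNA and yellow anti-TCR with GATA3 siRNA; 1 array each. On the left, both blue points lie above all other points of a gene, and the dotted line marks 200.

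The 4 genes higher in both cultures differ in what they encode. Zfp703, a transcriptional cofactor whose human homologue is a breast cancer oncogene, went from 195 to 556 in Th2-1st cells and from 173 to 643 in Th2-4th cells (log2 ratios 1.51 and 1.89). Its other 2 probe sets stayed under 20 on every array, and their ratios in Th2-4th cells were -0.32 and -1.73. Zfp593, the counterpart of a yeast factor needed to make the large ribosomal subunit, went from 2066 to 4502 in Th2-1st cells and from 1613 to 4667 in Th2-4th cells (log2 ratios 1.12 and 1.53), and its second probe set gave 1.80 and 1.05. Zfp296, known from pluripotent cells, went from 107 to 274 in Th2-1st cells and from 48.04 to 202 in Th2-4th cells (log2 ratios 1.36 and 2.07), so its Th2-4th signal crossed 200 by little. Zfp783 went from 173 to 357 in Th2-1st cells and from 203 to 478 in Th2-4th cells (log2 ratios 1.04 and 1.24), and its second probe set gave 1.07 and 1.62. In each of the 4, all stimulated arrays were above both unstimulated ones.

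Among members with a signal over 200 in each culture's control pair, a further 4 genes had the next largest shared ratios above 0. Zfp330, which encodes a nucleolar protein, went from 3032 to 7137 in Th2-1st cells and from 3408 to 6664 in Th2-4th cells (log2 ratios 1.23 and 0.97), just under 2-fold in Th2-4th cells. Zfp770 went from 746 to 1278 in Th2-1st cells and from 455 to 935 in Th2-4th cells (log2 ratios 0.78 and 1.04). By this probe set it was just over 2-fold in Th2-4th cells alone. The mean over its probe sets gave 1.03 (Th2-1st) and 0.55 (Th2-4th), over 2-fold in Th2-1st cells alone. By their brightest probe sets, Zfp715 and Zfp263 stayed below 2-fold in both cultures, at 0.70 and 0.60 for Zfp715 and 0.65 and 0.44 for Zfp263. In both genes, the unstimulated Th2-4th signal was above the stimulated control signal of Th2-1st cells, so the groups overlapped. Other readings passed 2-fold in 1 culture. The mean over probe sets gave Zfp715 1.75 (Th2-1st) and 0.64 (Th2-4th). Without probe sets ending in _x_at or _s_at, Zfp263 had 0.55 (Th2-1st) and 1.16 (Th2-4th). Past 2-fold in Th2-1st cells alone by the brightest probe set, and named after their values were seen, were Zfp330, Zfp566 (1.25 and 0.19), Zfp827 (signals of 107 and 297 in that culture) and Zfp948 (1.56 and 0.17).

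RefSeq (GRCm38.p6) lists promoters, from 250 bases before to 50 after the start, for 156 of the 187 members, 190 sequences in all. They were searched on both strands for the GC box GGGCGG, the E box CACGTG bound by MYC-type factors, and the AP-1 site TGANTCA. The GC box was present in 53.2% of the members' promoters and in 35.7% of all 32851 promoters. The E box was present in 8.42% and 7.15%, and the AP-1 site in 4.21% and 7.81%. The median number of CG pairs was 16 in the members' promoters and 7 in all. The members were chosen by signal and the 32851 promoters were not, and the part of this in these differences was not tested. Of the 26 promoters of genes lower in both cultures, 16 held a GC box, 3 an E box and 1 an AP-1 site, and both promoters listed for the 4 higher genes held a GC box and an E box. A match is a run of letters and no evidence of binding.

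The promoters of the first 2 genes with an entry in the order of shared falls, Zfp217 (chr2:170142626-170142925, minus strand, 1 of 2 listed) and Zfp287 (chr11:62731847-62732146, minus strand), and of the 2 genes with an entry that were higher in both cultures, Zfp296 (chr7:19577037-19577336, plus strand) and Zfp783 (chr6:47942925-47943224, plus strand), are shown as examples from either direction of the response. Capitals mark matches to the searched motifs on either strand, and sequences run 5′ to 3′ along the gene's strand.
Zfp217: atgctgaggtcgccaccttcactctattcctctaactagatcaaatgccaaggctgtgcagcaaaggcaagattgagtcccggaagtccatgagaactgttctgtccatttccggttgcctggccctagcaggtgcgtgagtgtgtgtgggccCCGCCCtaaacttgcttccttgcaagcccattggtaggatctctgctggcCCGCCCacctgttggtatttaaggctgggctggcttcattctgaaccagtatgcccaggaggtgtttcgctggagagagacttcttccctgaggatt
Zfp287: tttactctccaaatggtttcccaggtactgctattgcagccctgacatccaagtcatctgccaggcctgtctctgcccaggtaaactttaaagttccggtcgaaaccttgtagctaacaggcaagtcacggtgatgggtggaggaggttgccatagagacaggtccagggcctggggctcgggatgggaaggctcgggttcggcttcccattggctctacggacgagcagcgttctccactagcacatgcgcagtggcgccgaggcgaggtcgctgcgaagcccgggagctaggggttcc
Zfp296: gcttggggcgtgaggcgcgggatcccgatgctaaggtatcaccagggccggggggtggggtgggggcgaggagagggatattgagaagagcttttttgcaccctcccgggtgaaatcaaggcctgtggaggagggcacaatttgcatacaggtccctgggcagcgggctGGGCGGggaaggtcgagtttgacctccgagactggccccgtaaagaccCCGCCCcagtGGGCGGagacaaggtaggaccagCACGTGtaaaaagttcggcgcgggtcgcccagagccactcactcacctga
Zfp783: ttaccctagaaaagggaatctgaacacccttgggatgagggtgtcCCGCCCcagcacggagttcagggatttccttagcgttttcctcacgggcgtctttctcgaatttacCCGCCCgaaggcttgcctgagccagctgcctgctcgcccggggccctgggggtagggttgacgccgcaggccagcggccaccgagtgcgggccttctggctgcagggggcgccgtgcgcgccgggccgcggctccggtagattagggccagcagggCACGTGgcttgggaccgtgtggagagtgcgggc
Zfp217 and Zfp783 hold 2 GC boxes each and Zfp296 holds 3, Zfp296 and Zfp783 also hold 1 E box each, and Zfp287 has no match. Of the other strongly lower genes with an entry, Zfp3 and Zfp652 had no GC box and Zfp386 had 2, and Zfp652 held an AP-1 site.

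Grouped by known role, none of the Zfp genes that act on RNA, ribosomes or the spindle was lower than 0.5-fold after stimulation. All 9 of this list were over 200, their median log2 ratios were 0.20 and 0.05, and 1, Zfp593, was above 2-fold in both cultures. Of genes over 200, 16.8% and 21.8% were lower, and 9 genes are too few to be set apart from that share. Zfp622, a late factor of large ribosomal subunit maturation, went from 7278 to 9629 in Th2-1st cells and from 13189 to 12032 in Th2-4th cells, and was among the 5 members with the highest mean signal. Zfp207, a spindle assembly and splicing factor, went from 5494 to 6041 in Th2-1st cells and from 4199.7 to 4123 in Th2-4th cells by its brightest probe set. Its 5 other probe sets, all dimmer, read lower, from -0.78 to 0.02 (Th2-1st) and from -1.24 to -0.65 (Th2-4th). Zfp598, a ubiquitin ligase that senses stalled ribosomes, had ratios of 0.16 and 0.64, and Zfp830, linked to splicing, 0.29 and 0.54. Zfp638, which binds unintegrated retroviral DNA with the HUSH complex, had -0.06 and -0.45, and Zfp326, Zfp346 and Zfp106 stayed between -0.17 and 0.41.

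Of the transcription and chromatin factors, 19 of 26 measured were over 200. Their median log2 ratios were -0.05 and -0.09. In Th2-1st cells 1 was lower (Zfp217) and 3 were higher (Zfp296, Zfp703 and Zfp827), and in Th2-4th cells 2 were lower (Zfp217 and Zfp148) and 2 were higher (Zfp296 and Zfp703). The shares of genes over 200 were 16.8% lower and 9.89% higher in the Th2-1st pair, against 21.8% and 13.7% in the Th2-4th pair. Zfp148, which binds GC-rich promoters, went from 1365 to 873 in Th2-1st cells and from 1592 to 786 in Th2-4th cells, and its 5 other probe sets were below 0 in both cultures as well. Its relative Zfp281, a repressor known from stem cells, went the other way, from 1557 to 1950.0 in Th2-1st cells and from 1411 to 2565 in Th2-4th cells, under 2-fold. Zfp91, a ubiquitin ligase of the non-canonical NF-kappa B pathway, and Zfp451, a SUMO ligase, had ratios between -0.09 and 0.05. Zfp335, needed for T cell maturation, had 0.04 and 0.44.

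The 4 KRAB zinc finger genes of imprinting and retroelement silencing that were over 200 stayed within 2-fold. Zfp445, which guards imprinted loci, went from 4065 to 4892 in Th2-1st cells and from 5107 to 5704 in Th2-4th cells and was also among the members with the highest mean signal. Zfp568, the repressor of a placental Igf2 promoter, went from 428 to 397 in Th2-1st cells and from 353 to 356 in Th2-4th cells. Zfp809, which silences retroviral DNA with TRIM28, went from 922 to 616 in Th2-1st cells and from 912 to 591 in Th2-4th cells, and Zfp932 from 766 to 655 in Th2-1st cells and from 997 to 594 in Th2-4th cells. The other 2 genes of the list that were measured, Zfp57 and Zfp708, were at or below 200 on all arrays, and Zfp57 read 4.35 and 9.76 in Th2-1st cells, over 2-fold at signals too dim to weigh.

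Of 37 measured genes of the KRAB corepressor machinery, 36 were over 200. Among these, 6 (16.7%) were lower and 2 (5.56%) higher after stimulation of Th2-1st cells, beside 16.8% and 9.89% of genes over 200, and 7 (19.4%) and 4 (11.1%) after that of Th2-4th cells, beside 21.8% and 13.7%. Their median log2 ratios were -0.26 and -0.24. Trim28, the hub of the machinery, had ratios of -0.08 and -0.01, and Setdb1 0.13 and 0.17. Atf7ip, the partner that stabilizes SETDB1, went from 974 to 194 in Th2-1st cells and from 1822 to 234 in Th2-4th cells. Ehmt2, the methyltransferase G9a, went from 1428 to 459.7 in Th2-1st cells and from 2394 to 493 in Th2-4th cells. The maintenance DNA methylation genes Dnmt1 (-1.03 and -1.41) and Uhrf1 (-1.09 and -1.48) were lower, while the de novo methyltransferase gene Dnmt3a was higher (1.46 and 2.10). Mta3 was lower (-2.08 and -2.75) and Tasor2 higher (1.13 and 1.28) in both cultures. In Th2-1st cells alone, Chd3 was lower (-1.33 and -0.62). In Th2-4th cells alone, Tasor (-0.56 and -1.18) and Resf1 (-0.64 and -1.25) were lower, and Morc2a (0.68 and 1.27) and Cbx3 (0.56 and 1.70) higher. Other zinc finger families were counted in the same way, beside the same shares of genes over 200: of 27 Zbtb genes over 200, 5 and 5 were lower and 1 and 2 higher, with Th2-1st cells first. Of 11 Zscan and Zkscan genes, 1 and 2 were lower and none was higher, and of 9 Klf genes, 2 and 3 were lower and 1 and 2 higher. Their median log2 ratios were -0.38 and -0.13 (Zbtb), -0.22 and -0.49 (Zscan and Zkscan) and -0.63 and 0.01 (Klf). The Zfp genes had -0.32 and -0.47. In Th2-4th cells the Zbtb and Klf medians were thus nearer to 0 than that of the Zfp genes, but in Th2-1st cells they were further from 0. The Zscan and Zkscan median was close to that of the Zfp genes in Th2-4th cells.

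The members were set out along the chromosomes of GRCm38.p6, and Zfp genes whose starts lie less than 500 kb from the next were taken as 1 run. Runs of 4 or more Zfp genes held 91 members, with median log2 ratios after stimulation of -0.44 and -0.60, and 18 of them were lower in both cultures. The 96 members outside such runs had medians of -0.18 and -0.43, and 11 were lower in both, while 12.8% of genes over 200 were. The longest run, on chromosome 17, has 23 Zfp genes, of which 18 were members. Their medians were -0.93 (Th2-1st) and -1.29 (Th2-4th), against -0.26 and -0.44 for the 169 other members. Genes over 200 in the same range of signal had medians of -0.22 and -0.30 (7017 genes), and the 428 other genes over 200 on chromosome 17 had -0.26 and -0.31.

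In this run 8 of 18 genes were lower than 0.5-fold in the Th2-1st pair and 11 in the Th2-4th pair, beside 16.5% and 22.02% of genes of like signal. Zfp40, Zfp53, Zfp760, Zfp942, Zfp944 and Zfp945, named after their values were seen, were lower in both. Zfp53 went from 1366 to 515 in Th2-1st cells and from 4027 to 972 in Th2-4th cells (log2 ratios -1.41 and -2.05), and its second probe set gave -1.31 and -1.87. Zfp945 went from 249.6 to 97.9 in Th2-1st cells and from 956 to 221 in Th2-4th cells (log2 ratios -1.35 and -2.11). Not all neighbours followed: Zfp52 went from 2039.9 to 3270.4 in Th2-1st cells and from 4570.2 to 4746 in Th2-4th cells, and Zfp948 from 305 to 899 in Th2-1st cells and from 953 to 1072 in Th2-4th cells, which made it the run's 1 gene above 2-fold, in Th2-1st cells alone. Zfp946 went in opposite directions, from 1339.5 to 352 in Th2-1st cells and from 812 to 1410.0 in Th2-4th cells. Genes of such a run can be close in sequence, so a probe set may also bind a neighbour's transcript, which was not tested. Of the 187 members, 10 were read by a probe set ending in _x_at and 8 by one ending in _s_at, the marks for probes shared between transcripts.

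**Figure D4:**
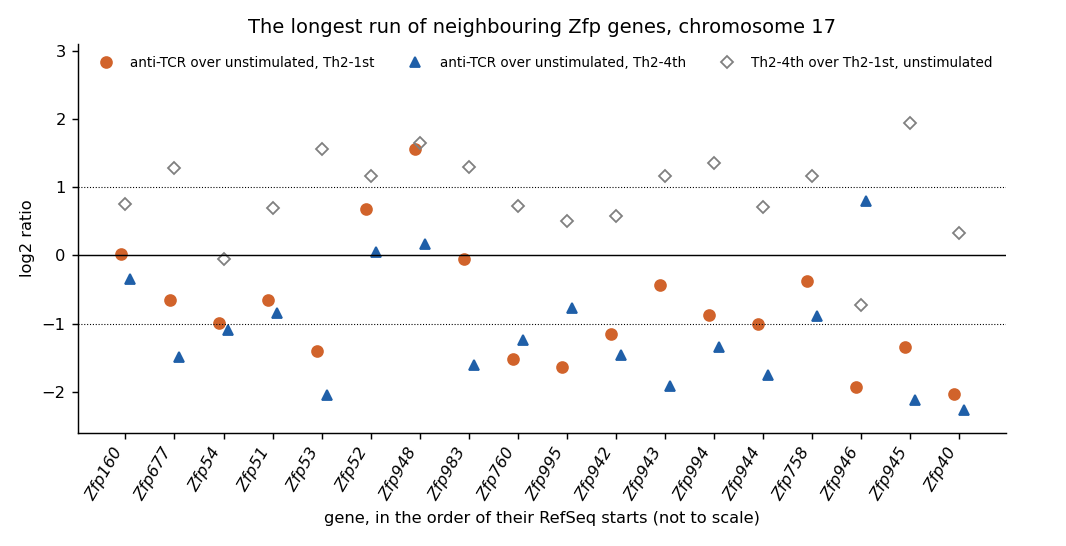
Log2 ratios (y axis) of the 18 Zfp genes of the longest run on chromosome 17, in the order of their starts (x axis, not to scale), 1 array per condition. Orange circles and blue triangles are stimulation in Th2-1st and Th2-4th cells, 15 of 18 below 0 in each, and open diamonds are unstimulated Th2-4th over unstimulated Th2-1st cells, 16 of 18 above 0.

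The same run differed between the cultures at rest. Unstimulated Th2-4th over unstimulated Th2-1st cells had a median log2 ratio of 0.96 in the 18 genes and 0.22 in the 169 other members, and 9 of the 18 were over 2-fold, beside 9.02% of genes of like signal. With each array centred on its median these were 0.71, -0.03 and 6 of 18, so the order held while the other members' median changed sign. The unstimulated arrays also enter the stimulation ratios, so both patterns share data. After stimulation the run's median was 0.47 as deposited and 0.23 after centring.

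Over all members, 20 (10.7%) were over 2-fold in unstimulated Th2-4th against Th2-1st cells and 3 (1.60%) below 0.5-fold. The shares of genes over 200 were 10.6% and 9.13%. In stimulated cells 11 (5.88%) were higher and 5 (2.67%) lower, beside 9.48% and 7.34%. The members' median was 0.23 unstimulated and 0.09 stimulated and turned to -0.02 and -0.15 after centring, which moved the median of all genes by -0.25 and -0.24. After centring the counts were 11 over 2-fold and 10 below 0.5-fold unstimulated, beside 6.998% and 14.03% of genes over 200. Stimulated, they were 5 and 9, beside 6.59% and 11.3%. Quantile normalization gave 18 and 5 unstimulated, beside 10.3% and 10.4%, and 8 and 8 stimulated, beside 8.34% and 7.75%. The surplus of higher over lower members in the unstimulated pair was kept by quantile normalization and nearly lost on centring. In the stimulated pair it was kept by neither. In each setting and pair, the share of lower members was below that of genes over 200. The limit of 200 enters here too: as deposited, 5 of the 20 higher and 2 of the 3 lower exceeded it in 1 culture alone, as did 3 of the 11 and 4 of the 5. The CD8 T cell gene Cd8b1 was lower in Th2-4th cells as well, with log2 ratios of -1.63 and -0.94, and its part in these differences was not tested. Of genes in both pairs, Zfp945 was higher in Th2-4th cells (1.94 and 1.17), as were the dim Zfp939 (2.45 and 2.45), Zfp536 (2.44 and 3.23) and Zfp365 (1.17 and 1.55). Zfp467 (-1.99 and -1.61) and Zfp626 (-1.01 and -1.01) were below 0.5-fold in both. Zfp939, Zfp536 and Zfp365 entered through 1 Th2-4th array each, and Zfp467 and Zfp626 through the unstimulated Th2-1st array alone, so the array that admitted them is the high one and their direction follows in part from the limit. These 2 and 4 members past 2-fold in both pairs stand beside 4.22% and 5.36% of genes over 200, in pairs that share no array but share their cultures. Zfp827, a factor that brings the NuRD complex to telomeres, was lower in stimulated Th2-4th cells, at 63.6 against 297, and Zfp318, known for its role in IgD expression in B cells, was under 2-fold in both pairs (-0.98 and -0.74).

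With GATA3 siRNA, 183 of the 187 Zfp genes stayed within 2-fold of control siRNA in Th2-1st cells, as did 181 in the older culture. In Th2-1st cells 1 of 187 was lower and 3 were higher, beside 7.49% and 13.3% of all genes and 1.45% and 2.4% of genes over 200. In Th2-4th cells 1 was lower and 5 were higher, beside 10.6% and 10.6% of all genes and 1.62% and 1.7% of genes over 200. No member was past 2-fold the same way in both cultures, beside 1.9% (lower) and 3.01% (higher) of all genes and 0.554% and 0.532% of genes over 200. The members' medians were 0.01 and 0.05, and the spread of their log2 ratios (a robust SD, from the median absolute deviation) was 0.28 and 0.32, against 0.72 and 0.96 for stimulation. These shares were close to the background of genes over 200.

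The genes past 2-fold are named here after their values were seen. In Th2-1st cells Zfp667 was lower, at 52.2 against 138, and Zfp365, Zfp536 and Zfp939 were higher, all with signals under 60 on both arrays. In Th2-4th cells Zfp536 was lower, at 19.02 against 231, the reverse of its direction in Th2-1st cells. That stimulated control array is the single array on which Zfp536 exceeded 200, so the gene was chosen through it. Zfp943 was higher in Th2-4th cells, at 829 against 374, and Zfp983 at 255 against 116. Zfp11, Zfp40 and Zfp467 were higher with both signals under 200. Of the 5 higher genes, Zfp40, Zfp943 and Zfp983 belong to the chromosome 17 run, whose median with GATA3 siRNA was 0.36 (Th2-4th) and -0.0037 (Th2-1st). Each of these 3 was lower than 0.5-fold after stimulation of Th2-4th cells, a ratio that uses the same stimulated control array.

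Zfp266, named after its values were seen, and Zfp263 were higher with GATA3 siRNA in both cultures at less than 2-fold. Zfp266 read 3506 against 2178 (Th2-1st) and 3615 against 2086 (Th2-4th), ratios of 0.69 and 0.79, and its 3 other probe sets gave 0.62 to 1.18 and 0.47 to 0.81. Zfp263 read 2609 against 1752 and 4476 against 2575, and its second probe set gave 0.27 and 0.28. Among the genes that led the response to stimulation, Zfp217 had GATA3 siRNA ratios of 0.04 and 0.62, Zfp287 0.09 and 0.13, and Zfp593 0.02 and -0.08.

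**Figure D5:**
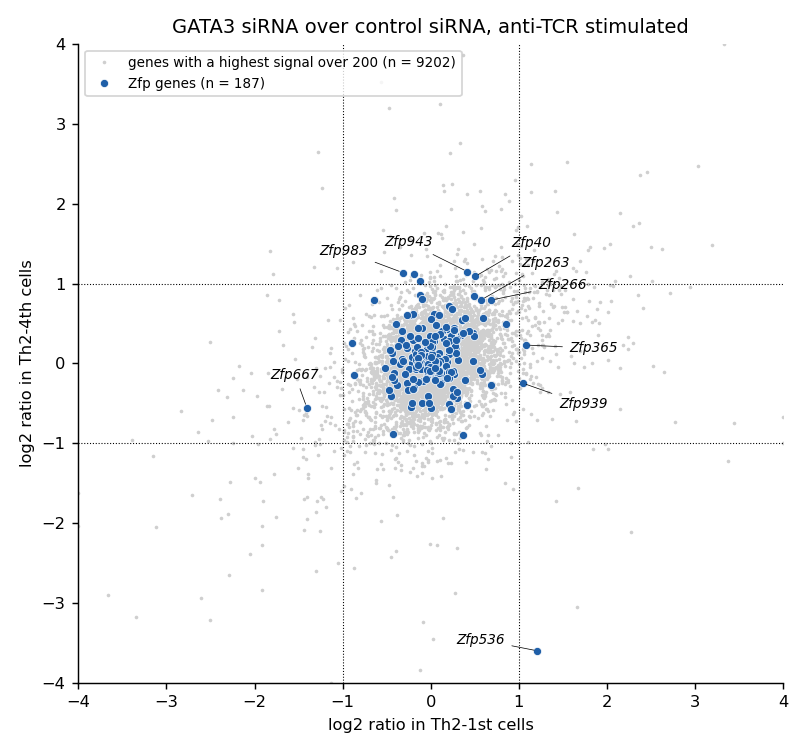
Log2 ratio of GATA3 siRNA over control siRNA in anti-TCR stimulated Th2-1st (x axis) and Th2-4th cells (y axis), 1 array per condition. Blue points are the 187 Zfp genes and grey points the 9202 genes over 200 (values past 4 or -4 are drawn at the edge); no Zfp gene lies past the dotted 2-fold lines in the same direction in both cultures, and Zfp536 lies past them in opposite directions.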

How the data were processed

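RNA from 6 samples, 1 per condition, was hybridized by the authors to Affymetrix arrays (Mouse Genome 430 2.0). The deposited values are linear signal intensities from the GeneChip Command Console and Expression Console software. For version and algorithm, neither is stated in the sources used here. On each array the mean intensity after trimming 2% at each end was 500, so the arrays had been scaled. Arrays have no read depth, and 1 array per condition limits the precision.

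Of 45101 probe sets, 34958 name a single gene in GEO's platform annotation, and 99.4% of these were matched by gene ID to RefSeq (GRCm38.p6). Log2 ratios of array pairs were computed with Python 3.11.15, numpy 2.4.6 and pandas 2.3.3, and figures with matplotlib 3.10.9. Counting was tested on simulated data. No p-value was computed. The arrays' files name no genome build, and promoter coordinates are those of RefSeq.

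The members and gene lists were chosen with earlier results of these data known. Genes named were the 8 largest shared falls and rises among members over 200 in both pairs, the 5 with the highest mean signal, the 4 largest culture differences a direction, the 3 on each side of the limit and those of the role lists, while others of the chromosome 17 run, those past 2-fold in a single pair and Zfp266 were named after their values were seen. From the KRAB corepressor list, Trim28, Setdb1 and the genes over 200 that passed 2-fold in either culture were named, with their values seen. Alternatives were the mean over probe sets, probe sets not ending in _x_at or _s_at, centring, quantile normalization, a floor of 100, a pair limit of 200, a limit of 400, and platform symbols.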

Additional observations from a re-analysis of the deposited data

Results flagged for a closer look

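Zfp946, a member of the chromosome 17 run read by a single probe set, moved in opposite directions on stimulation in the 2 cultures. Its log2 ratio was -1.93 (Th2-1st) and 0.80 (Th2-4th). With GATA3 siRNA and stimulation its signal was 303 and 998, beside stimulated control signals of 352 and 1410.0. With 1 array per condition, the difference between the cultures was not tested.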

How the results depend on the processing

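With 1 array per condition, no replicate could be left out and counts have no error. A fit that takes the cultures as replicates of stimulation was not made. Over the 8 alternatives, the median log2 ratio of the members after stimulation lay between -0.33 and -0.11 (Th2-1st) and between -0.60 and -0.30 (Th2-4th). The count of lower members lay between 22 and 33 and between 36 and 54. That of higher members lay between 7 and 10 and between 4 and 8. The sets differed in size, from 138 members (limit of 400) and 144 (mean over probe sets) to 187, so these counts are not shares of 1 set. The 36 lower members in Th2-4th cells were out of 144, and the limit of 400 gave 40 out of 138, beside 54 out of 187. Quantile normalization gave 18 instead of 29 members lower in both cultures (19 of the 29 were still lower, 1 of them no longer over 200 on any array) and 8 instead of 5 higher in Th2-4th cells. Counts with GATA3 siRNA were small and moved. In Th2-1st cells the lower and higher counts of 1 and 3 became 3 and 1 after centring, which moved the median of all genes by -0.17, and 2 and 1 after quantile normalization. They became 0 and 0 with signals below 100 raised to 100, with a higher signal of the pair over 200, and with a highest signal over 400. In Th2-4th cells the higher count of 5 became 3 with the mean over probe sets and with the limit of 400, and 2 with the floor or the pair limit, and the lower count of 1 became 0 with the limit of 400. The mean over probe sets gave 1 member, Zfp827, higher in both cultures. The mean over its probe sets, 2 of them under 20, turned the ratio of Zfp703 in Th2-4th cells to -0.052. The causes were not tested. Of the other gene values, 146 moved by less than the median gap between 2 probe sets of a gene (0.38 for the Th2-1st pair, 0.43 for the Th2-4th pair, on the log2 scale) and 11 by more without changing sign.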
